A study of Mus musculus with 24 samples.

Results

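The mouse mitochondrial genome holds 37 genes, and all of them were present in the count table of 54232 genes. They were taken as every gene whose symbol in the GRCm38 annotation begins with mt-, which gave 13 mRNAs, 22 tRNAs and 2 rRNAs on chromosome M. By annotated strand, 12 mRNAs, 14 tRNAs and both rRNAs lay on the plus strand (28 genes), and mt-Nd6 and 8 tRNAs lay on the minus strand (9 genes).

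The libraries came from visceral adipose tissue of 10-week-old male C57BL6 mice, 6 in each of 4 groups. Control mice had a sham operation and NaKtide mice a sham operation with the NaKtide peptide, which is designed to block signalling from the Na,K-ATPase. PNx mice had a 5/6 nephrectomy (loss of the right kidney and tying off of part of the left), a model of renal failure, and PNx+NaKtide mice had the nephrectomy with the peptide. Every mouse in all 4 groups received lentivirus into the peritoneum, carrying green fluorescent protein (GFP) alone in Control and PNx and NaKtide linked to GFP in the other two, in each case behind the adiponectin promoter, which is active in adipocytes.

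Mitochondrial DNA is a small circle that is transcribed from both strands as long precursor RNAs. Most genes are separated by tRNAs, and excision of these tRNAs by RNase P and the ELAC2 nuclease releases the mRNAs and rRNAs between them, after which the mRNAs receive poly(A) tails. One strand carries nearly all coding genes, and the precursor of the other strand is mostly sequence antisense to genes, which the SUV3 and PNPase decay complex degrades.

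The libraries were labelled as replicates of each group and were taken as separate mice, 1 each. On that reading, p-values measure the spread between mice. Pairs of libraries within a group lay between 1.57 (Control 5 and 6) and 129 (PNx 1 and 4) in chi-square per degree of freedom. A value of 1 is counting error alone. PNx+NaKtide 2 and 3 (1.93) and NaKtide 1 and 3 (2.09) were also close. Whether the closest pairs came from separate mice was not tested. Library totals ran from 679250 to 2979505 counts, so that 1 count in the smallest library weighed far more than in the largest, and the summed level of 12 adipocyte markers ran from 86.1 to 9543.3 CPM (the count as a share of the library total, scaled to 1000000). PNx replicates 1 to 3 stood apart by the summed level of 5 kidney markers (436 to 559 CPM, against 0 to 151 CPM in the other 21 libraries) and of 10 testis germ cell markers (1207.0 to 1796.1 CPM, against 86.7 to 1007.9 CPM). PNx replicate 6 and NaKtide replicate 6 held the highest adipocyte sums (9543.3 and 5003.5 CPM, against 86.1 to 1294.4 CPM in the other 22), PNx replicate 6 also the highest sum of 5 erythrocyte markers (2259.8 CPM) and NaKtide replicate 6 the highest sum of 10 skeletal muscle markers (5494.6 CPM). The sum of 15 epididymis markers ran from 29.5 to 3371.1 CPM. Its median over all 24 libraries was 1578.3 CPM, against 363 CPM for the 12 adipocyte markers. It was lowest in PNx replicate 1 (29.5 CPM), NaKtide replicate 6 (37.6 CPM) and PNx replicate 6 (210 CPM). The other lists ran from 204 to 457 CPM for 5 macrophage markers and from 0 to 28.2 CPM for 6 brown fat markers, of which Elovl3 was at 0 in every library. Values that PNx replicates 1 to 3, PNx replicate 6 or NaKtide replicate 6 moved most are also given without them. In such bulk tissue, fewer cells of a type and less RNA per cell cannot be told apart. The strand setting of the counting is not given either, so a marker sum may hold reads from the strand opposite a marker. The sums are therefore not read as shares of cell types.

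The distribution of counts over the genome turned on short stretches, which are shown here from the GRCm38 genome, read 5′ to 3′ along each gene's own strand. The first set is the gene of highest count, mt-Ts1 (tRNA for serine, chrM:6870-6938, minus strand), the end of mt-Co1 that runs into it from the opposite strand (chrM:6843-6872 of chrM:5328-6872, plus strand), and mt-Td (tRNA for aspartate, chrM:6942-7011, plus strand), which follows 3 bases further on. Capitals mark the 3 bases that mt-Ts1 and mt-Co1 share on opposite strands.
mt-Ts1: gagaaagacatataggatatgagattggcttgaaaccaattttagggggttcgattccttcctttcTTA
mt-Co1 end: gaggaaccaacctatgtaaaagtaaaaTAA
mt-Td: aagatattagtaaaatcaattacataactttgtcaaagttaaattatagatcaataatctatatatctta

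The second set is the point where mt-Nd5 (chrM:11742-13565, plus strand) meets mt-Nd6 (chrM:13552-14070, minus strand). Capitals mark the 14 bases at the 3′ ends that lie in both genes.
mt-Nd5 end: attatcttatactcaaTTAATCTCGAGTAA
mt-Nd6 end: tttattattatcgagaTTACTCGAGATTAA

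The third set is a pair of tRNA genes of 67 bases each that abut on opposite strands, mt-Tt (threonine, chrM:15289-15355, plus strand) and mt-Tp (proline, chrM:15356-15422, minus strand). They are of like length and position but not of like count, and no base is capitalised.
mt-Tt: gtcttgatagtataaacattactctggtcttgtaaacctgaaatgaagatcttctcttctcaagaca
mt-Tp: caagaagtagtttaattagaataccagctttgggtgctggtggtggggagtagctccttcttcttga

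The 37 genes together held 752697 counts over the 24 libraries, and 91.2% of these lay on the 9 minus-strand genes. The share of a library's counts on mitochondrial genes was lowest at 0.619% and highest at 3.09%, with a median of 1.82%, and the minus strand held between 76.8% and 96.8% of it in each library. Minus-strand genes cover 1068 bases and plus-strand genes 14373 bases. The strand setting of the counting is not given, so counts here and below stand under the annotated strand's name, whichever strand the RNA came from.

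**Figure D1:**
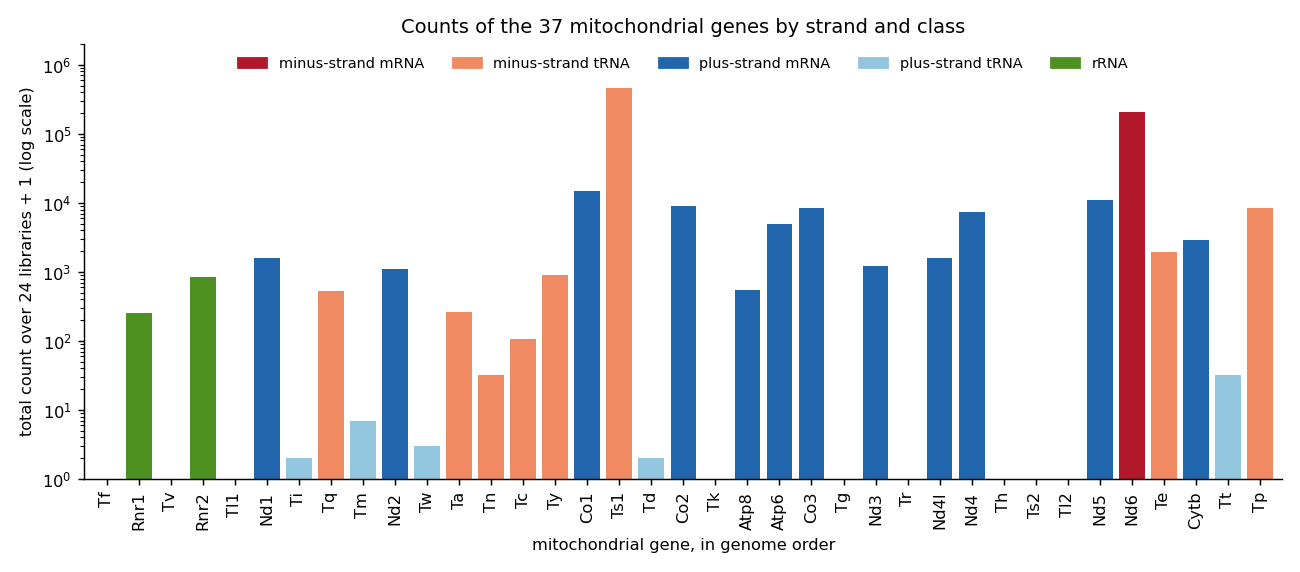
Total count of each mitochondrial gene over the 24 libraries, plus 1, on a log axis, with genes in genome order and bars coloured by strand and class. mt-Ts1 (465350) and mt-Nd6 (209228) stand above the next gene, mt-Co1 (15085), and 13 of the 14 plus-strand tRNAs hold 6 counts or fewer.

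tRNA genes of the 2 strands have like lengths (66 to 71 bases on the minus strand, 59 to 75 on the plus strand), so their counts can be set side by side. The 8 minus-strand tRNAs held 477388 counts and the 14 plus-strand tRNAs held 41. mt-Ts1 alone held 465350 counts and had rank 4 among all genes of the table by total count.

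The other minus-strand tRNAs followed in the order mt-Tp (proline, 8306 counts), mt-Te (glutamate, 1912), mt-Ty (tyrosine, 887), mt-Tq (glutamine, 536), mt-Ta (alanine, 262), mt-Tc (cysteine, 104) and mt-Tn (asparagine, 31). On the plus strand, mt-Tt held 31 counts, mt-Tm (methionine) 6, mt-Tw (tryptophan) 2, and mt-Ti (isoleucine) and mt-Td (aspartate) 1 each. The other 9 (mt-Tf, mt-Tv, mt-Tl1, mt-Tk, mt-Tg, mt-Tr, mt-Th, mt-Ts2 and mt-Tl2) had 0 counts in all 24 libraries, and a count of 0 allows up to 3 counts in a library. The pair printed above shows the contrast directly, since mt-Tp held 8306 counts and its neighbour mt-Tt 31.

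tRNA genes are shorter than the 2 reads of 50 bases of a pair laid end to end, and the library kit selects poly(A) RNA, so whether these counts came from mature tRNA or from longer RNA that reaches into the gene cannot be told from the table.

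mt-Nd6 encodes a subunit of complex I and is the sole mRNA of the minus strand. Its level was 5245.2 ± 1413.5 CPM in Control, 6321.4 ± 2161.1 in NaKtide, 4701.5 ± 2692.9 in PNx and 5307.3 ± 952.0 in PNx+NaKtide (mean ± SD, n = 6 each). The lowest, median and highest libraries were at 3272.1, 5272.5 and 6828.2 CPM in Control and at 4057.5, 6285.7 and 8862.7 CPM in NaKtide. They were at 1647.6, 4720.2 and 7671.7 CPM in PNx and at 4154.5, 5452.2 and 6299.9 CPM in PNx+NaKtide. The 4 groups overlapped, and PNx had the widest range of the 4.

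The 12 plus-strand mRNAs encode the other subunits of complex I, cytochrome b, 3 subunits of cytochrome oxidase and 2 of ATP synthase. Per kb, mt-Nd6 had 403136.8 counts and the 12 together 5967.7. Taken per library, the ratio of mt-Nd6 to the plus-strand mRNAs on this per-kb scale was 106 ± 46.8 in Control, 92.2 ± 48.4 in NaKtide, 67.4 ± 39.2 in PNx and 91.7 ± 45.5 in PNx+NaKtide (mean ± SD, n = 6 each). The lowest ratio was 21, in PNx replicate 6, the highest was 194, in Control replicate 4, and the SD in each group was larger than any difference between group means.

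Among the plus-strand mRNAs, mt-Co1 (cytochrome oxidase subunit I) had the most counts. Its lowest, median and highest levels were 124, 248 and 543 CPM in Control, 102, 250 and 514 CPM in NaKtide, 78.0, 331 and 2278.7 CPM in PNx, and 102, 309 and 349 CPM in PNx+NaKtide. The PNx value of 2278.7 CPM was replicate 6, and the other PNx libraries lay between 78.0 and 415 CPM. The summed level of the 12 plus-strand mRNAs was likewise highest in PNx replicate 6 (6993.2 CPM) and next in NaKtide replicate 6 (2967.7 CPM), and it ran from 584 to 1930.3 CPM in the other libraries. Without the PNx and NaKtide replicates 6, the group means were 1148.0 in place of 2122.2 CPM in PNx and 1321.4 in place of 1595.8 CPM in NaKtide. Replicate 6 was also the highest of Control (1930.3 CPM) and of PNx+NaKtide (1899.7 CPM).

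The rRNAs, which form the mitochondrial ribosome and end in short A tails, were at low levels. mt-Rnr1 (12S) was at 1.09, 1.68 and 8.45 CPM in Control (lowest, median and highest), 0, 3.75 and 10.0 in NaKtide, 1.30, 5.24 and 47.2 in PNx and 1.56, 3.48 and 7.08 in PNx+NaKtide. mt-Rnr2 (16S) was at 4.65, 13.7 and 25.6 CPM in Control, 8.83, 19.3 and 38.9 in NaKtide, 3.90, 13.1 and 110 in PNx and 5.46, 17.8 and 33.3 in PNx+NaKtide. The highest value of both rRNAs was again PNx replicate 6, and the ratio of rRNA to plus-strand mRNA counts per kb stayed between 0.0352 and 0.111 in every library.

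mt-Ts1 was at 6755.6, 11875.4 and 17160.7 CPM in Control (lowest, median and highest) and at 6669.2, 13808.2 and 19096.1 CPM in NaKtide. It was at 3542.5, 9147.6 and 20805.7 CPM in PNx and at 6658.1, 10811.3 and 20147.7 CPM in PNx+NaKtide. All 4 groups overlapped. mt-Tt, the sole plus-strand tRNA with more than 10 counts, was at 0 to 0.65 CPM in Control, 0 to 7.53 CPM in NaKtide, 0 to 1.05 CPM in PNx and 0 to 1.05 CPM in PNx+NaKtide, with 12 of its 31 counts in NaKtide replicate 6.

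**Figure D2:**
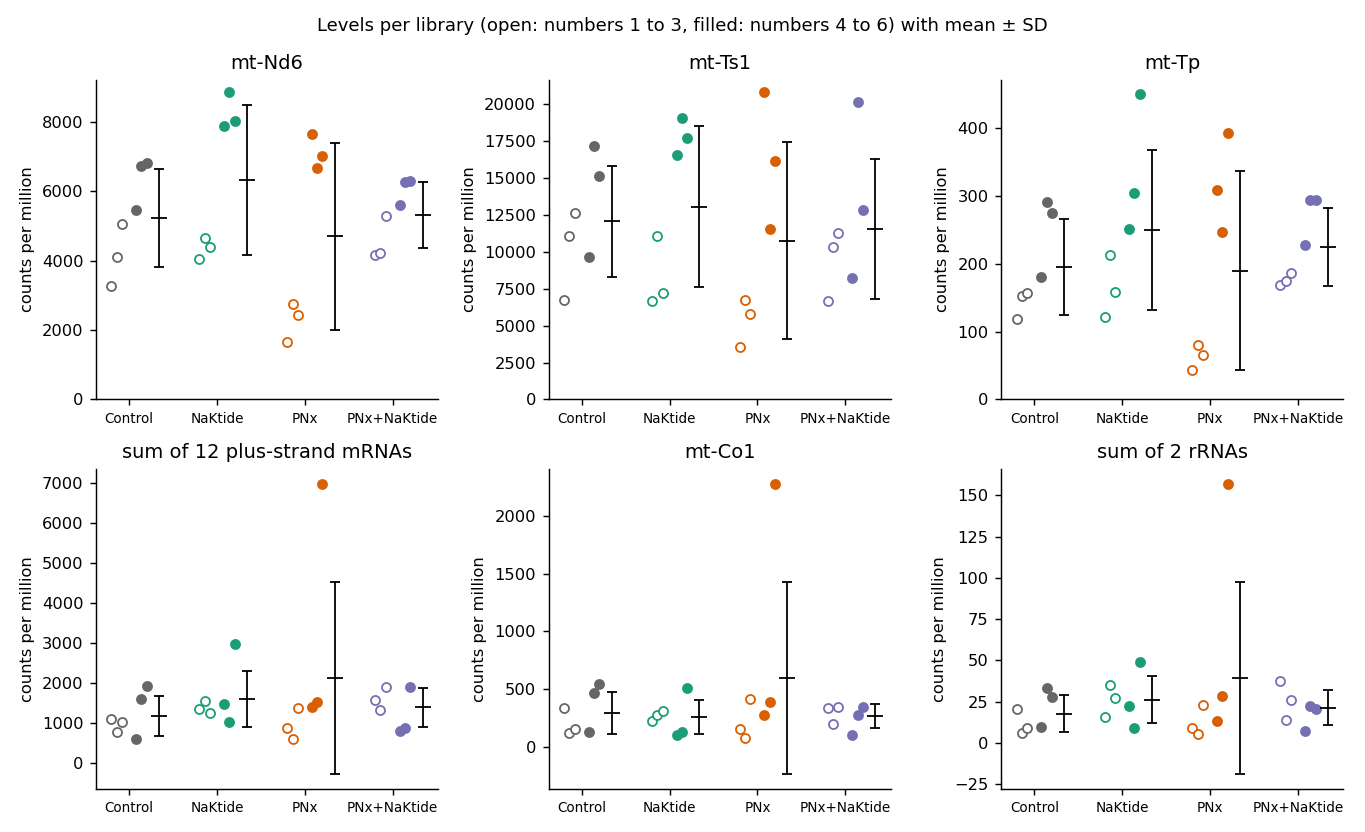
CPM in each of the 24 libraries for mt-Nd6, mt-Ts1, mt-Tp, the 12 plus-strand mRNAs, mt-Co1 and the 2 rRNAs, with open circles for libraries whose label number is 1 to 3, filled circles for 4 to 6, and a black bar for the mean ± SD of the group (n = 6). The filled circles lie above the open ones in all 4 groups for mt-Nd6 and mt-Tp, and PNx replicate 6 stands alone at 6993.2 for the plus-strand mRNAs and 157 for the rRNAs.

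The labels number the libraries of each group from 1 to 6, and mt-Nd6 divided along these numbers. In Control, libraries 1 to 3 lay at 3272.1 to 5066.0 CPM and libraries 4 to 6 at 5479.0 to 6828.2 CPM. In NaKtide the ranges were 4057.5 to 4669.8 and 7901.6 to 8862.7 CPM. In PNx they were 1647.6 to 2762.2 and 6678.2 to 7671.7 CPM, and in PNx+NaKtide 4154.5 to 5280.7 and 5623.7 to 6299.9 CPM. The 2 sets of numbers did not overlap in any of the 4 groups, a description made after the values were seen and not a test.

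mt-Tp divided the same way, with libraries 4 to 6 all above libraries 1 to 3 in all 4 groups. Of the 26116 genes tested, 5 showed this in all 4 groups (0.0191%), namely mt-Nd6, mt-Tp, Gm7172, Hoxaas3 and Phox2a. With TMM scaling both mitochondrial genes kept the pattern among 7 genes, and with DESeq2 size factors mt-Tp kept it among 9 genes while mt-Nd6 held it in 3 of the 4 groups. mt-Te showed it in 3 groups and mt-Ts1 in 2 on the library-total scale, while none of the 12 plus-strand mRNAs showed it in more than 2. The opposite order, libraries 4 to 6 all below 1 to 3 in all 4 groups, was shown by 5 genes on the library-total scale. It was shown by 4 genes with TMM scaling and 1 with DESeq2 size factors. The labels give no date or batch for the label numbers.

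Within libraries 1 to 3, mt-Nd6 was at 2283.3 ± 574 CPM in PNx against 4146.0 ± 898 in Control, 4379.9 ± 307 in NaKtide and 4550.1 ± 633 in PNx+NaKtide (mean ± SD, n = 3 each). Within libraries 4 to 6 it was at 7119.8 ± 506 CPM in PNx against 6344.3 ± 751 in Control, 8262.8 ± 523 in NaKtide and 6064.6 ± 382 in PNx+NaKtide. By mean, PNx was thus the lowest group in the first set and the second highest in the second. The sets were chosen after the values of this gene were seen, and the share of all genes with such an order was not counted. Over all genes, PNx replicates 1 to 3 lay 79.9 to 129 in chi-square per degree of freedom from PNx replicates 4 to 6. PNx replicates 1 to 3 are the libraries with the high kidney and testis germ cell marker sums given above. The relation of those sums to the mt-Nd6 level was not tested.

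Ratios between pairs of genes varied to different degrees over the libraries. The ratio of mt-Ts1 to mt-Nd6 counts ran from 1.46 to 3.21 over the 24 libraries, while that of mt-Ts1 to mt-Co1, whose genes share 3 bases on opposite strands, ran from 7.10 to 162. Over pairs of the 19 genes with at least 500 counts and a count in every library, the SD of the log2 ratio between 2 genes had a median of 0.58 in 15 pairs of minus-strand genes, 0.86 in 66 pairs of plus-strand mRNAs and 0.90 in 72 pairs of a plus-strand mRNA and a minus-strand gene. The closest pairs were mt-Nd1 with mt-Cytb (0.27), mt-Ts1 with mt-Nd6 (0.28), mt-Co1 with mt-Co2 (0.30) and mt-Nd6 with mt-Tp (0.30). The ranges of the 3 classes of pairs overlapped, and mt-Ty varied less against mt-Nd4 (0.53) and mt-Atp6 (0.60) than against any minus-strand gene (0.64 to 0.75). These SDs are a description over libraries that share their depth across genes, and genes of lower count carry more counting error.

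**Figure D3:**
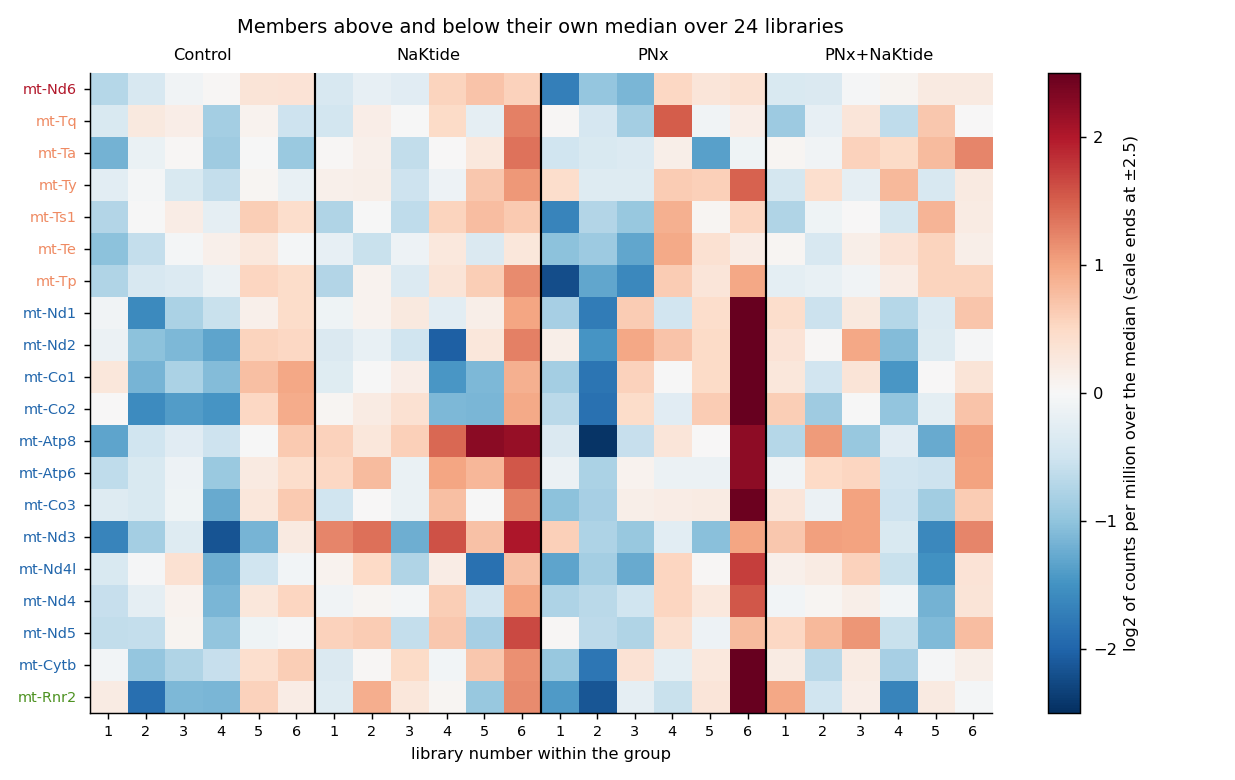
Each gene with a count in every library (rows, names coloured by strand and class as red minus-strand mRNA, orange minus-strand tRNA, blue plus-strand mRNA and green rRNA) in each library (columns, by group and label number), as the log2 of its CPM over its own median. PNx replicates 1 to 3 are low in mt-Nd6, mt-Ts1, mt-Te and mt-Tp, and PNx replicate 6 is high in all plus-strand mRNAs and mt-Rnr2.

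Of the 12 plus-strand mRNAs, 7 have near-identical copies in the nuclear genome, which bear on what their counts can say. Across the annotated transcripts, 16 nuclear pseudogenes matched a mitochondrial gene over at least 100 bases at 90% identity or more, and they held 46031 counts. A block on chromosome 1 (chr1:24611535-24616197, minus strand) holds 7 of these, which copy mt-Co1 in part, mt-Co2, mt-Atp6, mt-Co3, mt-Nd3, mt-Nd4l and mt-Nd4 in part. Their counts summed to 41058, against 47756 for the 7 mitochondrial genes.

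The copies of mt-Co2 and mt-Co3 had counts like those of the genes, library by library. Gm28661 matches mt-Co2 at 681 of 681 bases and had 9036 counts against 9066, with a ratio of 0.871 to 1.28 over the libraries. Gm28437 matches mt-Co3 at 783 of 783 bases and had 8546 counts against 8474, with a ratio of 0.925 to 1.13. In 23 and 24 of the 24 libraries the difference was within 2 times the square root of the summed count, that is, within counting error.

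Gm10222 (mt-Nd4l) and Gm28438 (mt-Nd3) were within it in each of the 24 libraries, but lay above the gene in 19 and 21 of them and had more counts in all (1775 against 1585 and 1424 against 1203). The other 3 copies of the block lay further from equality. Gm10925, identical to mt-Atp6 over 678 bases, had more counts than the gene in all 24 libraries (6637 against 5016 in all). Gm28439 copies 876 bases of mt-Nd4 and had 2908 counts against 7327, and Gm29216 copies 483 bases of mt-Co1 with 1 difference and had 10732 against 15085. Outside the block, Gm13340 on chromosome 2 matches mt-Co1 at 1508 of 1545 bases (97.6%) and had 4011 counts against 15085. Gm11408 on chromosome 4, which matches mt-Nd6 at 93.64%, had 157 counts against 209228.

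Single bases separate 2 of the block's copies from their genes. The windows below give the mitochondrial gene and the copy with the differing base in capitals, which is A1066T for Gm29216 against mt-Co1 and T3C for Gm28438 against mt-Nd3, counted from 1 at the first base of the mitochondrial gene.
mt-Co1: ggaAttgttttatccaact
Gm29216: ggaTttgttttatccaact
mt-Nd3: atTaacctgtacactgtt
Gm28438: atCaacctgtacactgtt
A read that misses that base fits gene and copy equally, and how such reads were assigned is not given in the sources used here, so levels of these 7 mRNAs are uncertain. Between the copies of mt-Co1 and mt-Co2 the block has a gap of 140 bases with no annotated gene, at the place of mt-Ts1 and mt-Td.

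**Figure D4:**
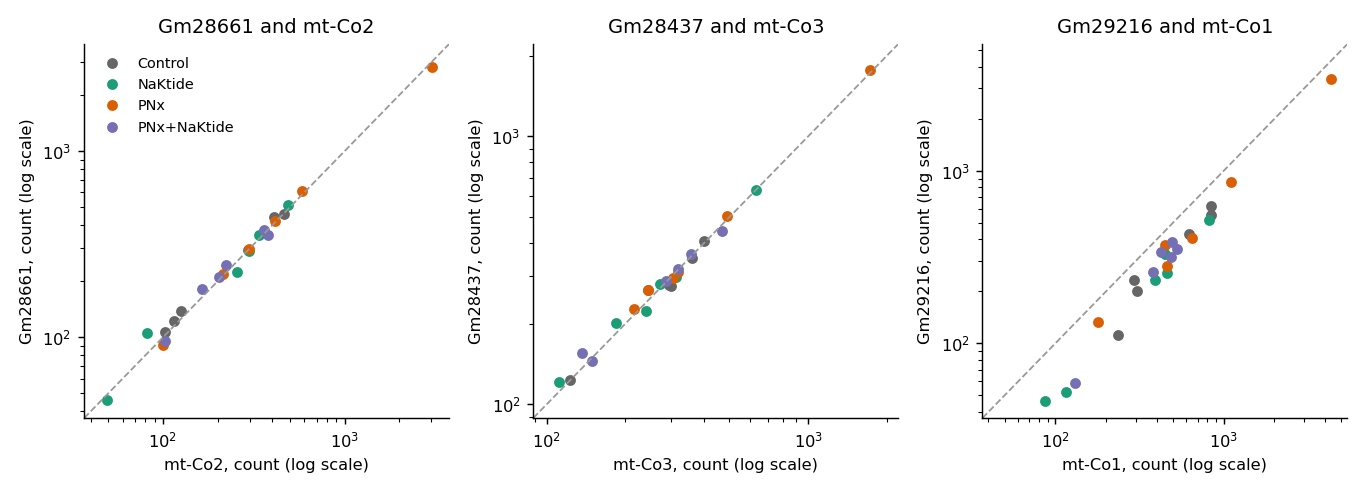
Count of a nuclear copy (vertical) against the count of its mitochondrial gene (horizontal), both on log axes, with 1 point per library coloured by group and a dashed line of equality. Points for Gm28661 with mt-Co2 and Gm28437 with mt-Co3 lie along the line, and all 24 points for the partial copy Gm29216 lie below mt-Co1.

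Whether renal failure altered these genes was addressed by PNx against Control. Of the 37 genes, 24 had more than 10 counts and were tested. None was called by edgeR's quasi-likelihood test at a Benjamini-Hochberg adjusted p under 0.1, where 0.0766% of all 26116 genes were called. At an unadjusted p under 0.05 there were 2 of 24 (25.4% of all genes), and the lowest adjusted p was 0.173.

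These 2 were mt-Nd2, a complex I subunit, and mt-Tc. mt-Nd2 was at 7.24, 12.6 and 26.7 CPM in Control and at 6.50, 27.4 and 181 CPM in PNx (lowest, median and highest). The log2 fold change was 1.28, with an SE of 0.57 and an adjusted p of 0.173 in the edgeR fit. The groups overlapped, and without PNx replicate 6 and NaKtide replicate 6 the log2 fold change was 0.38 ± 0.46. mt-Tc was at 0, 0.946 and 2.78 CPM in Control and at 1.85, 4.08 and 7.05 CPM in PNx, with all 6 PNx libraries above the Control mean. It had only 104 counts over all libraries and at most 21 in a library. Its log2 fold change was 1.44 ± 0.67, here and below with the SE (edgeR adjusted p = 0.184).

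The next largest log2 fold changes were 1.17 ± 0.72 for mt-Rnr1, -1.16 ± 0.81 for mt-Tn and 1.02 ± 0.59 for mt-Co2, and mt-Nd6 and mt-Ts1 had -0.32 ± 0.41 and -0.32 ± 0.46. Over fits without 1 library, mt-Nd6 ran from -0.70 (without PNx replicate 4) to -0.13 (without PNx replicate 1) and mt-Ts1 from -0.84 to -0.12 (without the same libraries). Without PNx replicate 6, mt-Rnr1 had -0.06 and mt-Co2 -0.14. By strand, all 12 plus-strand mRNAs had positive values with a median of 0.42, and 6 of 9 minus-strand genes had negative values with a median of -0.21, where the median of all genes was 0.36. Without PNx replicate 6, only 3 of the 12 plus-strand mRNAs had positive values and their median was -0.21, while that of the minus-strand genes was still -0.21 and that of all genes 0.02. DESeq2 called 4 members, all higher in PNx (mt-Co2, mt-Nd2, mt-Tc and mt-Ty, where 30.1% of all genes were called), and limma voom with sample weights called 9, of which 8 were lower (63.8% of all genes). In edgeR, DESeq2 size factors called the same 4 names (33.3% of all genes), plain library-size scaling called mt-Nd2 and mt-Tc (15.7%), the filterByExpr filter called mt-Nd2 (17.9%), and the fit without PNx replicate 4 called mt-Tc (33.2%).

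The question of whether NaKtide altered the genes in nephrectomised mice was addressed by PNx+NaKtide against PNx. No member was called by edgeR (0.0% of all genes), 1 of 24 had an unadjusted p under 0.05 (12.7% of all genes), and the lowest adjusted p was 0.357. That gene was mt-Ta, at 2.40, 4.81 and 6.79 CPM in PNx and at 5.77, 8.89 and 14.4 CPM in PNx+NaKtide. All 6 PNx+NaKtide libraries lay above the PNx mean, and the log2 fold change was 1.12 ± 0.43 (edgeR adjusted p = 0.357).

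The other largest log2 fold changes of PNx+NaKtide against PNx were 1.62 ± 1.00 for mt-Tt, -1.24 ± 0.73 for mt-Rnr1, -1.0 ± 0.57 for mt-Nd2 and -0.93 ± 0.59 for mt-Co2. mt-Nd6 had 0.29 ± 0.41 and mt-Ts1 0.24 ± 0.46. Without PNx replicate 6 the values of the first set of genes were 3.13 for mt-Tt, -0.02 for mt-Rnr1, -0.11 for mt-Nd2 and 0.24 for mt-Co2. mt-Nd6 and mt-Ts1 ran from 0.09 to 0.65 and from -0.10 to 0.77 over fits without 1 library, the highest without PNx replicate 4 and the lowest without PNx replicate 1 and PNx+NaKtide replicate 5 respectively. Plus-strand mRNAs had negative values in 10 of 12 and minus-strand genes positive values in 6 of 9, and the median of all genes was -0.37. Without PNx replicate 6, 11 of the 12 plus-strand mRNAs had positive values. DESeq2 called 0 members here, with 1 at an unadjusted p under 0.05 (21.9% of all genes), and voom called 10, all higher in PNx+NaKtide (44.0% of all genes).

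PNx libraries entered both comparisons, so their opposite signs for mt-Nd2, mt-Co2 and mt-Rnr1 share the same 6 libraries. When PNx replicates 1 to 3 were left out, the log2 fold change of PNx against Control was 0.30 ± 0.40 for mt-Nd6 and 0.30 ± 0.50 for mt-Ts1, and the sign of both thus turned on which PNx libraries were used. No member was called in that fit (0 genes in all, lowest adjusted p 0.389), and 9 of 24 had an unadjusted p under 0.05, where 11.1% of all genes did. mt-Nd2 then had 1.89 ± 0.53, with PNx replicates 4, 5 and 6 at 29.6, 25.2 and 181 CPM. The fit thus rested on 3 PNx libraries, among them replicate 6, which stood apart, so its counts of genes are not read as a change with nephrectomy. In PNx+NaKtide against PNx the same fit called 0 members, with 7 at an unadjusted p under 0.05 (15.2% of all genes), and in the interaction 0, with 11 (14.5%).

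**Figure D5:**
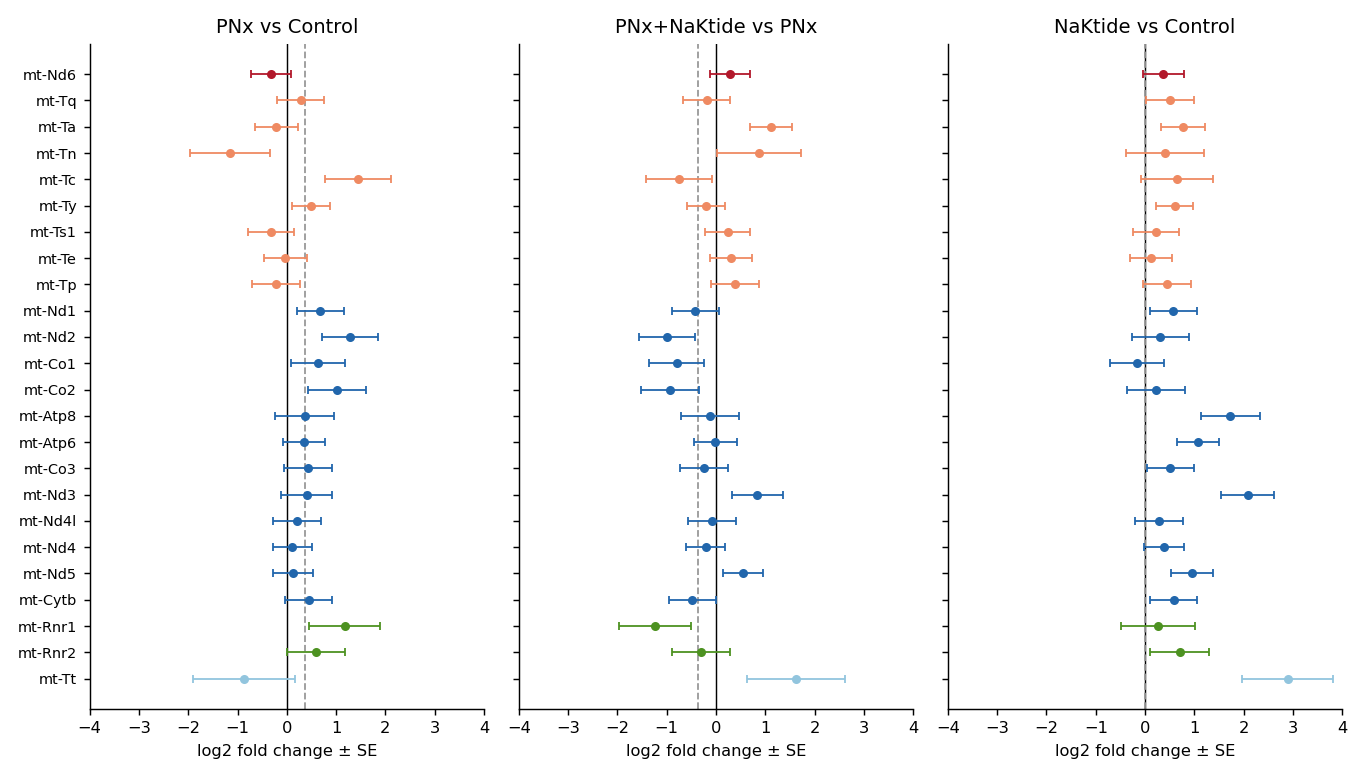
log2 fold change ± SE from edgeR for the 24 tested genes in PNx against Control, PNx+NaKtide against PNx and NaKtide against Control, with rows coloured by strand and class (red minus-strand mRNA, orange minus-strand tRNA, blue plus-strand mRNA, green rRNA, light blue plus-strand tRNA), a solid line at 0 and a dashed line at the median of all genes. No gene passed the adjusted threshold. mt-Nd3 (2.08) and mt-Tt (2.89) have the largest values in NaKtide against Control.

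NaKtide against Control gives the effect of the peptide without nephrectomy. No member was called (0.0% of all genes), although 5 of 24 had an unadjusted p under 0.05, where 3.95% of all genes did. mt-Nd3, a complex I subunit with a nuclear copy in the block, was at 5.01, 11.1 and 26.0 CPM in Control and at 9.60, 54.6 and 90.9 CPM in NaKtide. Its log2 fold change was 2.08 ± 0.53 with an unadjusted p of 0.000526 and an adjusted p of 0.629 from edgeR, and 5 of 6 NaKtide libraries lay above the Control mean.

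mt-Atp8, a subunit of ATP synthase whose gene overlaps that of mt-Atp6, was at 3.81, 7.31 and 14.9 CPM in Control and at 11.6, 20.1 and 45.6 CPM in NaKtide, and all 6 NaKtide libraries lay above the Control mean (log2 fold change 1.73 ± 0.60). mt-Tt had 2.89 ± 0.93, from at most 12 counts in a library, mt-Atp6 1.07 ± 0.43 and mt-Nd5 0.95 ± 0.42. Without NaKtide replicate 6 the values were 2.08 for mt-Tt, 1.89 for mt-Nd3, 1.56 for mt-Atp8, 0.91 for mt-Atp6 and 0.63 for mt-Nd5. All 9 minus-strand genes and 11 of 12 plus-strand mRNAs had positive values, with medians of 0.44 and 0.54 beside 0.0 for all genes. DESeq2 and voom called 0 members as well, with 7 and 4 of 24 at an unadjusted p under 0.05, where 3.75% and 8.45% of all genes were.

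PNx+NaKtide against NaKtide gives the effect of nephrectomy in mice with the peptide. edgeR called 0 members and 0.0% of all genes, and 2 of 24 members had an unadjusted p under 0.05 (4.09% of all genes), as 2 also had with DESeq2 (2.87% of all genes) and with voom (5.84%), which called 0. These were mt-Atp8 (log2 fold change -1.49 ± 0.60) and mt-Tt (-2.14 ± 0.89), and mt-Nd3 (-0.83 ± 0.51), mt-Atp6 (-0.73 ± 0.43) and mt-Tn (-0.70 ± 0.82) followed. Without NaKtide replicate 6 these were -1.32, -1.33, -0.64, -0.57 and -0.49 in the same order, and mt-Tn ran from -1.06 to -0.40 without PNx+NaKtide replicates 5 and 2. The NaKtide libraries are shared with the preceding comparison.

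The difference between the effects of nephrectomy with and without the peptide was tested as an interaction. edgeR called 0 members and 0.0% of all genes, 1 of 24 had an unadjusted p under 0.05 (9.27% of all genes), and the lowest adjusted p was 0.52, for mt-Atp8 (-1.85 ± 0.84). mt-Rnr1 (-1.50 ± 1.05), mt-Tc (-1.39 ± 0.98), mt-Nd2 (-1.31 ± 0.81) and mt-Tt (-1.27 ± 2.01) followed. Without PNx replicate 6 the values were -1.14 for mt-Atp8, -0.29 for mt-Rnr1, -0.42 for mt-Nd2 and 0.23 for mt-Tt, and without NaKtide replicate 6 they were -0.89 for mt-Tc and -0.46 for mt-Tt. DESeq2 called 0 members with 7 at an unadjusted p under 0.05 (12.3% of all genes), and voom called 3, mt-Nd6, mt-Te and mt-Tp, where it called 25.5% of all genes.

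The nuclear genes that copy, transcribe, process and degrade mitochondrial RNA were read from a list of 35, all of them tested. In PNx against Control, edgeR called 1 of 35, where it called 0.0766% of all genes (20, all lower in PNx). At an unadjusted p under 0.05 there were 7 (6 higher, where 18.5% of all genes were, and 1 lower, where 6.88% were). The median log2 fold change was 0.44 beside 0.36 for all genes. The called gene was Mgme1, an exonuclease of mitochondrial DNA, at 30.1 ± 14.3 CPM in Control, 9.25 ± 4.4 in PNx, 25.3 ± 10.0 in PNx+NaKtide and 17.4 ± 7.23 in NaKtide (mean ± SD, n = 6 each). Its log2 fold change in PNx against Control was -1.94 ± 0.41 (edgeR adjusted p = 0.0943). The lowest edgeR adjusted p of any gene in this comparison was also 0.0943, so every call lay close to the threshold of 0.1.

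The call of Mgme1 held in 6 of 24 fits that each left out 1 library (adjusted p from 0.0347 to 0.267), and its log2 fold change stayed between -2.24 and -1.76 in them. It held in 6 of 10 fits with another tool, scaling, filter or model (log2 fold change -2.39 to -1.24, highest adjusted p 0.179) and in 3 of 4 fits chosen after the data were seen (-1.98 to -1.59, highest adjusted p 0.389). Mgme1 shares 206 exon bases with Snx5 on the opposite strand, and the counting's strand setting is not given, so reads of the 2 genes cannot be told apart here. Of the 35 genes, 16 share exon bases with an opposite-strand gene, and the same limit holds for them. Among them are 1110008L16Rik (243 bases, Ppp2r3c) and Polg (921 bases, Fanci). In the other roles, the largest log2 fold changes of PNx against Control, none of them called by edgeR, were 1.71 ± 0.78 for Tfam, which packages mitochondrial DNA and starts its transcription, and 1.88 ± 0.70 for Pnpt1, the PNPase of RNA decay. Fastkd3, of the FASTK family of mitochondrial RNA-binding proteins, had 1.81 ± 0.83, and 1110008L16Rik, the processing gene of largest change, 1.60 ± 0.57. DESeq2 called these 4 and 9 of the 35 in all, where it called 30.1% of all genes.

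In PNx+NaKtide against PNx, 0 of the 35 were called by edgeR and 3 had an unadjusted p under 0.05 (12.7% of all genes), with a median of -0.50 beside -0.37 for all genes. DESeq2 called 4 (Pnpt1, Angel2, Mgme1 and Polg), where it called 5.88% of all genes. In NaKtide against Control and in PNx+NaKtide against NaKtide, edgeR and DESeq2 called 0, and in edgeR 0 had an unadjusted p under 0.05. In the interaction edgeR called 0, with 1 at an unadjusted p under 0.05 (9.27% of all genes), and DESeq2 called 1, Mgme1, where it called 0.365% of all genes.

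The library kit marks the strand of each RNA, but the sources used here do not give the strand setting of the counting. Whether the counts of a mitochondrial gene came from RNA of its own strand or of the strand opposite it was not tested. Each count above is thus a count at the gene's position, under the annotated strand's name. In the nuclear list, Slirp (mean 617 CPM), Fastk (369 CPM) and Mterf4 (218 CPM) share 3036, 1141 and 1855 exon bases with opposite-strand genes. Mtpap shares 1147 and was at 1.62 CPM. Tfam (7.06 CPM) and Ssbp1 (8.11 CPM) share 0.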

How the data were processed

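RNA was sequenced in 24 libraries, 6 per group and taken as 1 per mouse. Per the labels and the study's methods, poly(A) libraries were made with a stranded kit, sequenced from both ends at 50 bases, trimmed with Trimmomatic 0.38 and aligned to GRCm38 with HISAT2 2.1.0. Reads per gene were counted with the GenomicAlignments package, whose strand setting is not given in the sources used here. Deposited counts are raw reads per Ensembl gene, and the deposited FPKM values are length- and depth-scaled values made by the authors. Another deposited table, of normalised counts, was not used.

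Members and lists were chosen with earlier results of these data known. Symbols came from GENCODE M21, which held 54165 of 54232 identifiers. Genes with more than 10 counts over all libraries were tested with edgeR 4.0.16 (TMM scaling, quasi-likelihood test, R 4.3.3) on 4 group means, with Benjamini-Hochberg adjustment over 26116 genes and a threshold of 0.1. Levels are CPM, the count over the library total times 1000000. Alternatives used DESeq2 1.42.0, limma 3.58.1 (voom, and log2 of FPKM plus 1 or 0.1), other scalings and filters, a replicate block and leaving out libraries. In simulated counts for PNx against Control, run on 25422 genes, edgeR recovered 23% of 4-fold and 72% of 8-fold changes, and 4.04% of its calls were false. For DESeq2 22.2% and for voom 13.3% of calls were false. The simulation had no libraries that stood apart and no shift over all genes, so these rates need not hold in the real libraries. Nuclear copies were transcripts that blastn 2.17.0 aligned to a mitochondrial gene over at least 100 bases at 90% identity or more. Named genes were all members with more than 10 counts for levels, the 5 of largest absolute log2 fold change per comparison, and, among the nuclear genes, those called or of largest fold change in their role at a mean of at least 1 CPM.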

Additional observations from a re-analysis of the deposited data

Results flagged for a closer look

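A value was singled out when its gap to the nearest library of its group was too large for a group of 6 by Dixon's test, which chance alone passes in about 1 group in 20. PNx replicate 6 stood above the rest of PNx in the summed plus-strand mRNAs (6993.2 CPM), the summed rRNAs (157 CPM), mt-Rnr1 (47.2 CPM), mt-Rnr2 (110 CPM), mt-Co1 (2278.7 CPM) and the summed plus-strand tRNAs (2.1 CPM). NaKtide replicate 6 stood above the rest of NaKtide in the summed plus-strand mRNAs (2967.7 CPM) and plus-strand tRNAs (9.41 CPM). These 2 libraries also held the highest adipocyte marker sums, 9543.3 and 5003.5 CPM, and low epididymis marker sums, 210 and 37.6 CPM. The relation of these sums to the mitochondrial levels was not tested. Control replicate 4 stood above the rest of Control in the per-kb ratio of mt-Nd6 to plus-strand mRNA (194). In edgeR no member differed between the effects of nephrectomy with and without NaKtide at the adjusted threshold. Voom called 3 of 24 (mt-Nd6, mt-Te and mt-Tp), where it called 25.5% of all genes.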

How the results depend on the processing

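In PNx against Control, where 0 members were called, DESeq2 called 4 (30.1% of all genes) and DESeq2 size factors in edgeR 4 (33.3%). Plain library-size scaling called 2 (15.7%), the filterByExpr filter 1 (17.9%) and limma voom with sample weights 9 (63.8%). Voom called 10 in PNx+NaKtide against PNx (44.0% of all genes) and 3 in the interaction (25.5%), each against 0. Fits without 1 library called 0 to 1 members in PNx against Control and 0 in the other comparisons. The 1 was mt-Tc, without PNx replicate 4, where 33.2% of all genes were called. Over all genes, the median in PNx against Control went from 0.36 to 0.76 (DESeq2 size factors), 0.70 (library size) and -0.05 (voom) on the log2 scale. Of the 35 nuclear genes of the mitochondrial RNA list, DESeq2 called 9 in PNx against Control (30.1% of all genes) and 4 in PNx+NaKtide against PNx (5.88%). It called 1 in the interaction (0.365%), and the main fit called 1, 0 and 0 (0.0766%, 0.0% and 0.0% of all genes).

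Signs turned as follows, and beyond the libraries left out the cause was not tested. Under voom, log2 fold changes were -0.14 for mt-Co2 in PNx against Control, 0.04 for mt-Rnr1, 0.13 for mt-Nd2 and 0.35 for mt-Co2 in PNx+NaKtide against PNx, and 0.09 for mt-Nd2 and 0.30 for mt-Tt in the interaction. Over fits without 1 library, mt-Rnr1 and mt-Co2 ran from -0.06 to 1.56 and from -0.14 to 1.38 in PNx against Control, mt-Co2 and mt-Ts1 from -1.15 to 0.24 and from -0.10 to 0.77 in PNx+NaKtide against PNx, and mt-Tt from -1.67 to 0.23 in the interaction, where mt-Rnr1 and mt-Nd2 kept their sign (-1.89 to -0.29 and -1.57 to -0.42). The lone turn of mt-Ts1 was without PNx+NaKtide replicate 5 and the others without PNx replicate 6. In fits added after seeing the data, without PNx replicate 6 and NaKtide replicate 6, mt-Rnr1 and mt-Co2 had -0.06 and -0.14 in PNx against Control, mt-Co2 0.24 in PNx+NaKtide against PNx, and mt-Rnr1, mt-Nd2 and mt-Tt 0.15, 0.01 and 1.06 in the interaction. Without PNx replicates 1 to 3, mt-Nd6 and mt-Ts1 had 0.30 and 0.30 in PNx against Control and -0.36 and -0.38 in PNx+NaKtide against PNx. Adding the 7 copies of the chromosome 1 block to their genes, or the label numbers 1 to 3 and 4 to 6 as a term, left 0 members called in all 5 comparisons.

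Same-numbered libraries of 2 groups had deviations that correlated between -0.59 and 0.71. In 8 of 24 such pairs the same number was the best match among the libraries of the other group. These values cannot settle whether the numbers pair the animals, and the main fit used no pairing. The fit with a replicate block called 0 members in all 5 comparisons and 1 gene in all in PNx against Control, against 20. Group means of the class sums and of the per-kb ratio moved by less than 1 SD under every alternative run, but the SD of PNx is itself widened by replicate 6, without which the plus-strand mRNA mean was 1148.0 in place of 2122.2 CPM and the rRNA mean 15.9 in place of 39.4 CPM. The biological coefficient of variation of 71.4% and plus-strand tRNA counts near 0 limit what these libraries can show.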
